A study of Mus musculus with 24 samples.

Results

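A set of 33 genes of cholesterol and fatty acid synthesis was followed in mouse cortex. The genes were chosen by gene symbol, each symbol matched 1 gene of the 43346 in the count table, and all 33 passed the filter on low counts, which kept 21891 genes. They fall into 7 enzymes of the mevalonate arm (acetyl-CoA to farnesyl diphosphate) and 11 enzymes of the squalene and sterol arm (farnesyl diphosphate to cholesterol). The others are 6 regulators, the sterol carrier Stard4 among them, 3 enzymes of fatty acid synthesis, and 6 desaturases and elongases that modify the fatty acids made. RNA from the cortex was sequenced in 24 libraries, in 4 groups of 6. Mice of genotype label Abca7 that received lipopolysaccharide (LPS, a bacterial outer membrane component that triggers innate immune signalling) were 54 to 56 days old, and control mice that received LPS were also 54 to 56 days old. Mice of genotype label Abca7 with stimulus label none were 55 to 58 days old, and control mice with stimulus label none were 55 to 57 days old. The series design text describes the Abca7 mice as heterozygous and LPS as injected. The sources used here do not give strain, sex, the nature of the allele, the LPS dose or the time after injection. Library titles carry different numbers, read here as 1 mouse per library. If some libraries share a mouse, the p-values measure only the spread between libraries.

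Cholesterol in the brain is made locally, because the blood-brain barrier keeps out the lipoproteins that supply other organs. Oligodendrocytes use much of it for myelin, and astrocytes supply neurons with sterol. Transcription of the pathway is driven by the SREBP factors, membrane proteins encoded by Srebf1 and Srebf2: when sterol is low, the escort protein Scap carries them to the Golgi, where proteases release their active domain, and when sterol is high, the Insig proteins hold Scap in the endoplasmic reticulum.

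SREBP binds sterol regulatory elements, usually beside sites for the general factors NF-Y and Sp1. Promoters (250 bases before to 50 after a start site) came from RefSeq on GRCm38.p6, the mm10 build, and were searched on both strands for TCACNCCAC, CCAAT and GGGCGG. Promoters were listed for 26 of the 33 genes. The letters TCACNCCAC stood in the promoter of 1 of these 26 genes (3.85%), Hmgcs1, against 1.44% of all genes with a listed promoter. CCAAT stood in 21 of 26 (80.8%), against 41.1% of all genes, and GGGCGG also in 21 of 26 (80.8%), against 38.2%. Matches of different motifs were counted separately, whether or not they overlapped. A match is a description and not a site, and no match says only that the letters are not in that window. Of the 5 promoters shown next, Hmgcs1, the synthase that makes HMG-CoA, holds the only sterol element letters, at position -137 from the start and 39 bases from the start of the nearest CCAAT box. Hsd17b7 and Insig1 passed the LPS test, and Cyp51 and Elovl5 followed the oligodendrocyte marker level. Capitals mark TCACNCCAC and CCAAT on either strand (CCAAT on the opposite strand reads ATTGG).
Hmgcs1, chr13:119690101-119690400, plus strand: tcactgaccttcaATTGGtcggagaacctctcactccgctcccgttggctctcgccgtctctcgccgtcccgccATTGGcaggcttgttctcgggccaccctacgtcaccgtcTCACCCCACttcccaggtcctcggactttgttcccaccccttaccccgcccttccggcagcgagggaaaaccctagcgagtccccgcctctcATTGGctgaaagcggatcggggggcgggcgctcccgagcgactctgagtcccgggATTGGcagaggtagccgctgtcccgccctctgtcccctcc
Hsd17b7, chr1:169969156-169969455, minus strand: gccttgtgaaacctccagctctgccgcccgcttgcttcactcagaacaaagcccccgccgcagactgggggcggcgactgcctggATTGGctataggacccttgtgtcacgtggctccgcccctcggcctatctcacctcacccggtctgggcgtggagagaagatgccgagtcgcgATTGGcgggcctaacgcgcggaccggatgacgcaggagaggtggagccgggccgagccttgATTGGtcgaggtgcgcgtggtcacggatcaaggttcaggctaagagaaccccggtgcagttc
Insig1, chr5:28071162-28071461, plus strand: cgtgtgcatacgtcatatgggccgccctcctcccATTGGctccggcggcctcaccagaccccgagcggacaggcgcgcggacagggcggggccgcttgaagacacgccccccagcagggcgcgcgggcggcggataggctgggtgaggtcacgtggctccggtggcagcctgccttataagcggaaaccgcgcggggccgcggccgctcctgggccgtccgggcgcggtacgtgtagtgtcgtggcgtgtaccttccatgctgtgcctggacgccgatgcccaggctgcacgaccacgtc
Cyp51, chr5:4104648-4104947, minus strand: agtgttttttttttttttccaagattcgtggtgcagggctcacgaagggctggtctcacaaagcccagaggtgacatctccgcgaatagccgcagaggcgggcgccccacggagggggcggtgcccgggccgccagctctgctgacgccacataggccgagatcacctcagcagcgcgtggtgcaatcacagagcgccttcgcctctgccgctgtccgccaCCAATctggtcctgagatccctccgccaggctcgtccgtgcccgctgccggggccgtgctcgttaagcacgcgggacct
Elovl5, chr9:77917115-77917414, plus strand: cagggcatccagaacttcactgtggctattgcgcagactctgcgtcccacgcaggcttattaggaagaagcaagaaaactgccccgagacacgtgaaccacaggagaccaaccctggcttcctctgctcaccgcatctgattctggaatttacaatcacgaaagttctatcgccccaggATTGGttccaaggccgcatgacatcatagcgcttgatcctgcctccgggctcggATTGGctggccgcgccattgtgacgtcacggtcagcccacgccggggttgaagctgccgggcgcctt
Hmgcs1 held 4 CCAAT boxes and 3 GGGCGG boxes, Hsd17b7 held 3 of each, Insig1 held 1 and 3, Cyp51 held 1 of each, and Elovl5 held 2 CCAAT boxes and 0 GGGCGG boxes. Pmvk, Dhcr7, Sc5d, Fads2 and Elovl6 also passed the LPS test or followed the oligodendrocyte marker level, and are not shown. Elovl6 held 0 of each box, Fads2 held 0 CCAAT boxes and 1 GGGCGG box, and Sc5d held 1 and 4. Pmvk and Dhcr7 have several listed promoters, some with CCAAT boxes and some without. No promoter was listed for Fdft1, Scd1 and Scd2.

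Total counts ran from 48149131 to 75741388 per library, and no difference between compared groups passed the test (exact permutation test, two-sided, p between 0.171 and 0.617; the smallest p that 6 against 6 allows is 0.00216). Markers of brain cells were present: the 9 neuron markers summed to between 6346 and 7163 CPM (a gene's reads relative to its library's TMM-scaled total) and the 10 oligodendrocyte markers to between 3981 and 5826 CPM over all libraries. No other brain region was compared, so these sums do not test the label cortex. Abca7 itself was not lower in the mice that carry its name as genotype label. It had 25.2, 30.0 and 31.5 CPM (lowest, median, highest) in labelled Abca7 LPS mice against 20.6, 25.6 and 27.1 CPM in control LPS mice. It had 29.9, 31.3 and 34.8 CPM in labelled Abca7 mice without LPS against 26.6, 28.0 and 32.2 CPM in control mice without LPS. Neither difference passed the edgeR test (adjusted p = 0.267 and 0.606), so the genotype is given throughout as a label. Choroid plexus markers differed in control mice, where 5 of 6 passed the edgeR test as higher under LPS: the 6 markers summed to a median of 290 CPM (190 to 546) in control LPS mice against 26.1 CPM (14.6 to 299) in control mice without LPS, and to 302 CPM (36.8 to 431) in labelled Abca7 LPS mice against 439 CPM (61.2 to 498) in labelled Abca7 mice without LPS. In these bulk samples fewer cells of a type and less RNA per cell cannot be told apart.

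The 33 genes spanned a wide range of levels. Divided by the transcript length of the table, Scd2, the main stearoyl-CoA desaturase of brain, stood highest at 245 ± 17.4 CPM per kb (mean ± SD over 24 libraries) and Hmgcs1 second at 76.2 ± 6.53 CPM per kb. The desaturases Fads1 and Fads2 followed at 52.3 ± 2.37 and 44.3 ± 2.85 CPM per kb, and Srebf2 and Scd1 were next at 38.5 ± 1.53 and 37.5 ± 5.55 CPM per kb, closer to each other than their spread. At the low end stood Ebp, a sterol isomerase, at 4.47 ± 0.357 CPM per kb, Hsd17b7 at 4.36 ± 0.333 CPM per kb and Lss, which closes squalene epoxide into lanosterol, at 3.88 ± 0.192 CPM per kb. Of the 32 steps between neighbours in this order, 16 were larger than the larger of the 2 SDs. Table length lay within 10% of the exon length in the GENCODE M21 annotation for 19 of the 33 genes, so the order of the others depends more on the gene model. Hmgcs1, Fads1, Fads2 and Srebf2, named above near the top, are among these others. Their table lengths were 3233, 3456, 1508 and 4989 bases, against exon lengths of 4594, 4812, 3295 and 7184 bases. A longer length would lower their values per kb. Scd2 alone held between 34.5% and 38.1% of the 33 genes' summed CPM. That sum was 3559, 3668 and 3746 CPM (lowest, median, highest) in labelled Abca7 LPS mice against 3418, 3464 and 3763 CPM in labelled Abca7 mice without LPS. It was 3659.5, 3800 and 4042 CPM in control LPS mice against 3446, 3619 and 4035 CPM in control mice without LPS. The ranges overlapped in both pairs.

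The first question of the design is what LPS did to these genes. Few of them passed the test, each with a small difference, and those that did were higher under LPS. In mice labelled Abca7, 5 of 33 genes (15.2%) passed the test (edgeR quasi-likelihood, adjusted over all 21891 genes, threshold 0.05), all 5 higher, while 11.8% of all genes were called in either direction and 6.65% as higher. In control mice 3 of 33 (9.09%) passed, all 3 higher, against 17.3% of all genes in either direction and 9.39% as higher. Read against genes called in either direction, the share in labelled Abca7 mice lies near the background and the control share below it. Read against genes called as higher, the share in labelled Abca7 mice lies above the background, on 5 genes, and the control share near it. Estimates lay above 0 for 24 of 33 genes in labelled Abca7 mice (72.7%, against 51.7% of all genes) with a median log2 difference of 0.06 against 0.0052 over all genes, and for 22 of 33 in control mice (66.7%, against 51.5%) with a median of 0.05 against 0.0051. These counts depended on the covariates: with age as a factor 12 of 33 estimates lay above 0 in labelled Abca7 mice, and with the level of the choroid plexus gene Ttr as a covariate 13 of 33 did in control mice. Ttr itself differed between the control groups, so the fit with it cannot tell Ttr and LPS well apart there. With no filter on low counts 1 gene passed in control mice.

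**Figure D1:**
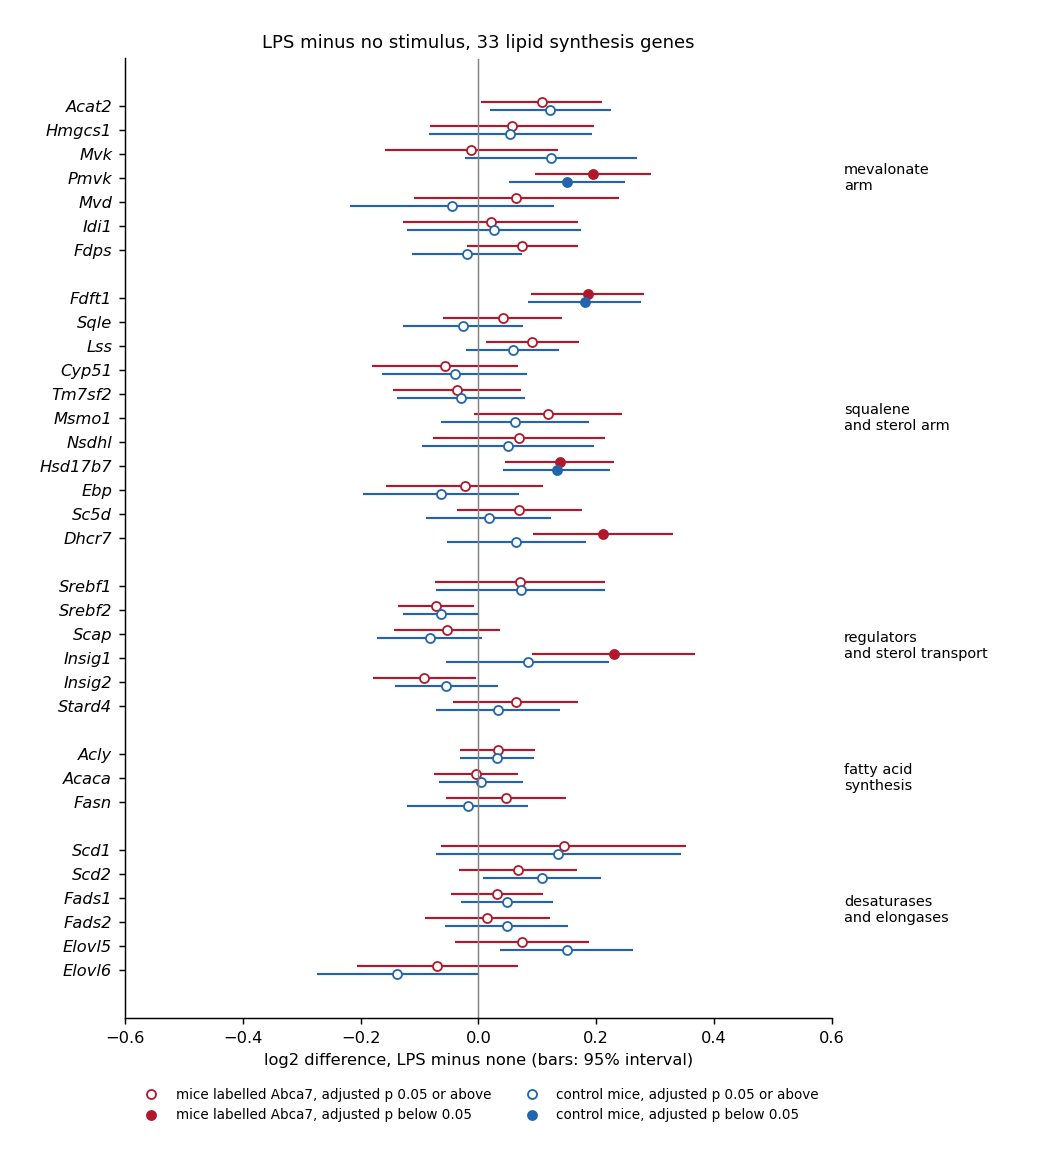
Log2 difference, LPS minus no stimulus, for each of the 33 genes grouped by role, with 95% intervals, in mice labelled Abca7 (red, upper of each pair) and control mice (blue, lower); filled points passed an adjusted p of 0.05. The 8 filled points lie between 0.13 and 0.23, and no interval reaches beyond -0.27 or 0.37.

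In the mevalonate arm 1 of 7 enzymes passed in each genotype. The share of all genes called was 11.8% in labelled Abca7 mice and 17.3% in control mice. Pmvk, phosphomevalonate kinase, on chr3:89459118-89469013, had 22.8, 25.4 and 27.3 CPM (lowest, median, highest) in labelled Abca7 LPS mice against 20.9, 21.6 and 24.3 CPM in labelled Abca7 mice without LPS. It had 23.6, 25.2 and 26.0 CPM in control LPS mice against 20.6, 22.6 and 24.9 CPM in control mice without LPS. The ranges overlapped in both pairs, but 5 of 6 labelled Abca7 LPS libraries and 4 of 6 control LPS libraries lay above every library of their unstimulated group. Its log2 difference was 0.19 ± 0.05 (SE) in labelled Abca7 mice (edgeR adjusted p = 0.00611) and 0.15 ± 0.05 in control mice (edgeR adjusted p = 0.0281). In control mice this call was lost without any 1 of 7 libraries, namely control_LPS replicates 2, 3, 4 and 5 and control_none replicates 2, 3 and 4 (edgeR adjusted p between 0.0507 and 0.0829). The other 6 enzymes (Acat2, Hmgcs1, Mvk, Mvd, Idi1 and Fdps) did not pass. Acat2, the thiolase that joins acetyl-CoA units, shares 39.1% of its 50-base sequences with Acat3, so its level of 23.5 to 32.3 CPM over all libraries is uncertain. Fdps, Idi1 and Hmgcs1 share 26.2%, 25.3% and 11.6% of theirs with other genes, so their levels are uncertain too.

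In the squalene and sterol arm 3 of 11 enzymes passed in labelled Abca7 mice and 2 of 11 in control mice. Over all genes 11.8% were called in either direction in labelled Abca7 mice and 17.3% in control mice. No difference between the arm and the other genes was tested. Fdft1, squalene synthase, which commits farnesyl diphosphate to sterols, lies on chr14:63145153-63177793. It had 71.8, 78.6 and 83.5 CPM in labelled Abca7 LPS mice against 63.1, 69.1 and 77.7 CPM in labelled Abca7 mice without LPS. It had 73.0, 80.0 and 83.7 CPM in control LPS mice against 67.0, 68.8 and 72.6 CPM in control mice without LPS. The control groups did not overlap and the labelled Abca7 groups did. Its log2 difference was 0.19 ± 0.05 in labelled Abca7 mice (edgeR adjusted p = 0.00735) and 0.18 ± 0.05 in control mice (edgeR adjusted p = 0.0068), increases of 13.7% and 13.3%. Fdft1 overlaps the lysosomal protease gene Ctsb, with which it shares 26.5% of its 50-base sequences in the M21 annotation. Ctsb, at a mean of 438 CPM, differed by 0.04 ± 0.03 in labelled Abca7 mice (edgeR adjusted p = 0.475) and by 0.10 ± 0.03 in control mice (edgeR adjusted p = 0.0292), and its part in the Fdft1 counts was not tested.

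Hsd17b7, a reductase that acts while methyl groups are removed from the sterol ring (chr1:169949535-169969241), had 21.5, 22.6 and 23.4 CPM in labelled Abca7 LPS mice against 18.9, 20.9 and 21.4 CPM in labelled Abca7 mice without LPS. It had 22.2, 23.7 and 26.7 CPM in control LPS mice against 20.9, 21.9 and 23.2 CPM in control mice without LPS. Here the labelled Abca7 groups just failed to overlap, while the control groups overlapped. The log2 difference was 0.14 ± 0.04 in labelled Abca7 mice (edgeR adjusted p = 0.0427) and 0.13 ± 0.04 in control mice (edgeR adjusted p = 0.0384). Both calls sat close to the threshold. The call in labelled Abca7 mice ended without any 1 of 10 libraries, namely Abca7_LPS replicates 1, 2, 4 and 5, Abca7_none replicates 1, 4, 5 and 6, and control_LPS replicates 1 and 2 (edgeR adjusted p between 0.0509 and 0.114). In control mice it was lost without any 1 of 6, namely control_LPS replicates 2, 3 and 6 and control_none replicates 2, 4 and 6 (edgeR adjusted p between 0.0694 and 0.108).

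Dhcr7, the reductase of the last step to cholesterol (chr7:143823145-143848410), had 24.3, 26.5 and 28.2 CPM in labelled Abca7 LPS mice against 21.8, 22.6 and 24.8 CPM in labelled Abca7 mice without LPS. In control mice it had 24.1, 26.3 and 27.9 CPM under LPS against 22.5, 25.1 and 29.5 CPM without. In labelled Abca7 mice 5 of 6 LPS libraries lay above every unstimulated library, and in control mice none did. The log2 difference was 0.21 ± 0.06 in labelled Abca7 mice (edgeR adjusted p = 0.0133) and 0.06 ± 0.06 in control mice, which did not pass (edgeR adjusted p = 0.51). Sqle, squalene epoxidase, a rate-limiting enzyme of the arm, did not pass. Its range in labelled Abca7 mice was 49.1 to 52.9 CPM under LPS against 46.5 to 52.5 CPM without. Its log2 difference was 0.04 ± 0.05 in labelled Abca7 mice and -0.03 ± 0.05 in control mice. The other 7 enzymes of the arm (Lss, Cyp51, Tm7sf2, Msmo1, Nsdhl, Ebp and Sc5d) passed in neither genotype.

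**Figure D2:**
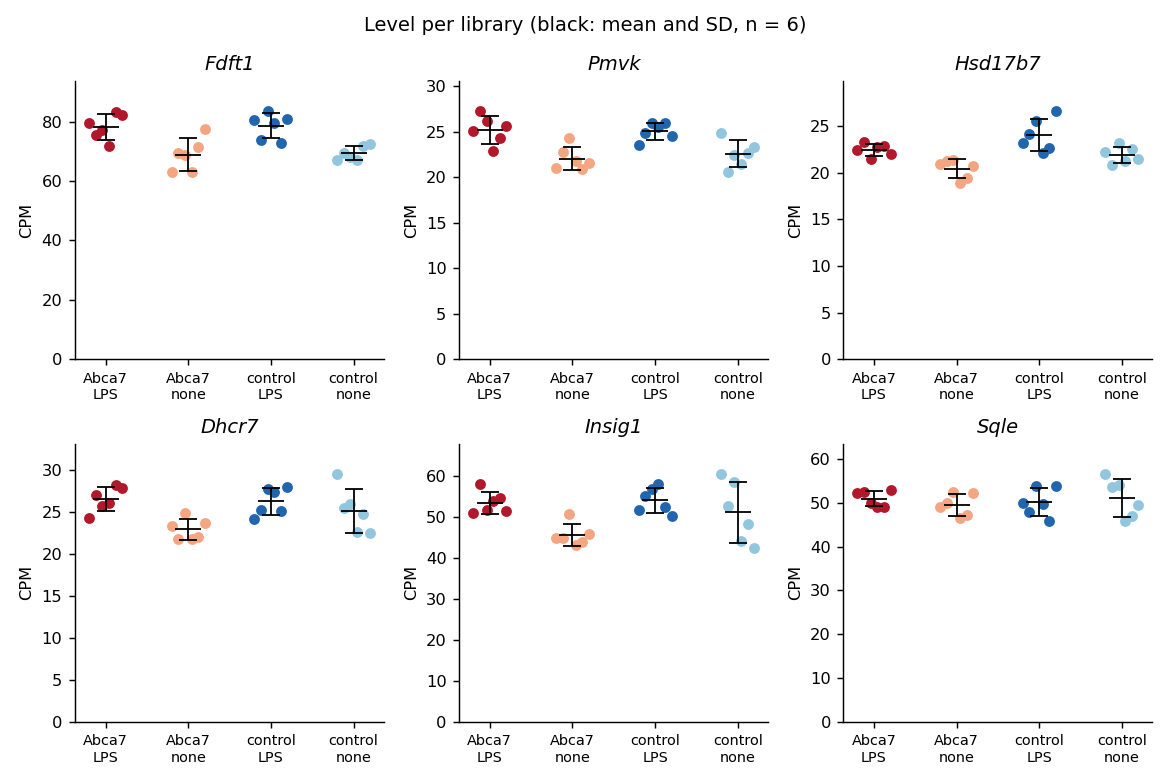
CPM in each library for the 5 genes that passed the LPS test in at least 1 genotype and for Sqle, by group (6 libraries each; black marks show mean and SD; axes start at 0). Fdft1 in control mice lies between 73.0 and 83.7 CPM under LPS and between 67.0 and 72.6 CPM without, and Insig1 in labelled Abca7 mice between 50.9 and 58.2 CPM under LPS and between 43.2 and 50.8 CPM without.

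Among the regulators only Insig1, an endoplasmic reticulum protein that retains Scap and is itself a sterol-regulated gene, passed, in labelled Abca7 mice. It lies on chr5:28071363-28078662 and had 50.9, 52.7 and 58.2 CPM in labelled Abca7 LPS mice against 43.2, 44.9 and 50.8 CPM in labelled Abca7 mice without LPS, ranges that did not overlap. In control mice it had 50.3, 53.9 and 58.1 CPM under LPS against 42.5, 50.5 and 60.6 CPM without, and the unstimulated control libraries spread over the whole LPS range. The log2 difference was 0.23 ± 0.07 in labelled Abca7 mice (edgeR adjusted p = 0.0229) and 0.08 ± 0.07 in control mice (edgeR adjusted p = 0.454), and the interaction gave no call. The call in labelled Abca7 mice ended without Abca7_LPS replicate 2, Abca7_none replicate 1 or Abca7_none replicate 4 (edgeR adjusted p = 0.0664, 0.0504 and 0.055).

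The transcription factors and their escort did not pass. Srebf2, the factor chiefly tied to sterol genes, had 177, 186 and 196 CPM in labelled Abca7 LPS mice against 190, 195 and 202 CPM in labelled Abca7 mice without LPS. It had 176, 188 and 206 CPM in control LPS mice against 192, 198 and 201 CPM in control mice without LPS. In each genotype 5 of 6 LPS libraries lay below every unstimulated library, and in control mice 1 lay above every one. Its log2 differences were -0.07 ± 0.03 in labelled Abca7 mice (edgeR adjusted p = 0.151) and -0.06 ± 0.03 in control mice (edgeR adjusted p = 0.18). Srebf1, the factor chiefly tied to fatty acid genes, differed by 0.07 ± 0.07 in both genotypes. Scap differed by -0.05 ± 0.04 in labelled Abca7 mice and -0.08 ± 0.04 in control mice, and Insig2, the second Insig protein, by -0.09 ± 0.04 in labelled Abca7 mice and -0.05 ± 0.04 in control mice.

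No gene of fatty acid synthesis and no desaturase or elongase passed the LPS test. Acaca, acetyl-CoA carboxylase, which sets the rate of fatty acid synthesis, had 86.9, 92.3 and 100.3 CPM in labelled Abca7 LPS mice against 90.0, 92.3 and 99.2 CPM in labelled Abca7 mice without LPS. Its log2 difference was -0.0042 ± 0.03 in labelled Abca7 mice and 0.0048 ± 0.03 in control mice, with 95% intervals of -0.08 to 0.07 and -0.07 to 0.08. Fasn, fatty acid synthase, differed by 0.05 ± 0.05 in labelled Abca7 mice and -0.02 ± 0.05 in control mice. Scd2 had 1227, 1343 and 1408 CPM in labelled Abca7 LPS mice against 1199, 1228 and 1375 CPM in labelled Abca7 mice without LPS. It had 1297, 1431 and 1538 CPM in control LPS mice against 1237, 1296 and 1479 CPM in control mice without LPS. Its log2 difference was 0.07 ± 0.05 in labelled Abca7 mice (edgeR adjusted p = 0.447) and 0.11 ± 0.05 in control mice (edgeR adjusted p = 0.136). Scd1, the other desaturase of the pair, differed by 0.15 ± 0.10 in labelled Abca7 mice and 0.14 ± 0.10 in control mice, with the widest intervals of the set.

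The 95% intervals bound what these libraries could have missed. Over the 33 genes they reached from -13.4% to 29.0% in labelled Abca7 mice and from -17.3% to 26.9% in control mice, so every interval excluded a change of 50% in either direction. The calls were checked against age, since the LPS groups included younger mice. Between mice of the same age (55 or 56 days, 1 to 3 libraries a side), the log2 difference lay between 0.05 and 0.32 for the 5 genes called in labelled Abca7 mice and between 0.06 and 0.17 for the 3 called in control mice. These genes were called as higher in the same libraries, so the sign of these values is a description and no support. With age as a factor in the fit, Fdft1 kept its call in both genotypes, with a log2 difference of 0.18 in each. Pmvk lost its calls at 0.15 in labelled Abca7 mice (edgeR adjusted p = 0.0706) and 0.13 in control mice (0.0524), and Hsd17b7 at 0.13 in labelled Abca7 mice (0.154) and 0.12 in control mice (0.0941). In labelled Abca7 mice Dhcr7 lost its call at 0.18 (edgeR adjusted p = 0.0911), and Insig1 at 0.15 (0.125), against 0.23 without the age term. With Ttr as a covariate, no call remained in control mice: Fdft1 had a log2 difference of 0.21 (edgeR adjusted p = 0.0629), Pmvk 0.09 (0.549) and Hsd17b7 0.13 (0.323). Ttr itself had 165, 250 and 485 CPM (lowest, median, highest) in control LPS mice. It had 4.94, 12.8 and 261 CPM in control mice without LPS. That fit therefore cannot tell Ttr and LPS well apart in control mice, and the lost calls have no reading as to cause.

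Markers of several other cell types also differed with LPS. Of 7 microglia markers, 6 were lower and 1 higher in labelled Abca7 mice (edgeR), and they summed to 180 to 208 CPM under LPS against 246 to 264 CPM without. In control mice 6 of 7 were lower, with sums of 177 to 195 CPM under LPS against 244 to 259 CPM without. Of 6 endothelium markers, 5 were lower and 1 higher in each genotype, with sums of 184 to 209 CPM under LPS against 222 to 269.5 CPM without in labelled Abca7 mice, and 188 to 211 CPM under LPS against 227 to 261 CPM without in control mice. The microglia and endothelium sums did not overlap between LPS and unstimulated libraries in either genotype. Of 5 meningeal fibroblast markers, 3 were lower in each genotype, with sums of 26.5 to 43.9 CPM under LPS against 40.6 to 49.6 CPM without in labelled Abca7 mice, and 31.0 to 40.4 CPM under LPS against 43.3 to 52.0 CPM without in control mice. Of 7 neutrophil and monocyte markers, 5 passed the filter on low counts and 4 of these were higher in each genotype. The 5 that passed the filter summed to 1.36 to 2.44 CPM under LPS against 0.214 to 0.761 CPM without in labelled Abca7 mice. In control mice they summed to 1.90 to 3.83 CPM under LPS against 0.462 to 0.814 CPM without. Of the astrocyte markers 1 of 8 was higher in labelled Abca7 mice, where 11.8% of all genes were called, with a mean of 7.87 ± 0.04 log2 CPM (SD, n = 6) under LPS against 7.83 ± 0.05 without (exact permutation p = 0.149, adjusted over 24 such tests 0.511). In control mice 3 of 8 were higher, where 17.3% of all genes were called, with a mean of 7.92 ± 0.06 log2 CPM under LPS against 7.82 ± 0.05 without (exact permutation p = 0.013, adjusted 0.078). The part of these cell types in the calls was not tested.

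Related pathways were counted in the same way, beside the 11.8% of all genes called in labelled Abca7 mice and the 17.3% called in control mice; no difference between a list and the other genes was tested. Of 16 genes of sterol turnover, oxysterols and LXR signalling, 2 were higher and 1 lower under LPS in labelled Abca7 mice, and 3 were higher in control mice, so 3 of 16 were called in each. Ch25h, which makes the immune oxysterol 25-hydroxycholesterol, had 3.08, 9.52 and 12.02 CPM in labelled Abca7 LPS mice against 0.23, 0.425 and 0.576 CPM without LPS. It had 9.27, 11.2 and 13.5 CPM in control LPS mice against 0.16, 0.354 and 0.385 CPM without, with no overlap in either pair. Its log2 difference was 4.49 ± 0.26 in labelled Abca7 mice (edgeR adjusted p = 3.44e-13) and 5.18 ± 0.26 in control mice (edgeR adjusted p = 2.1e-14). The sterol exporter Abca1 rose in both genotypes, by 0.32 ± 0.07 in labelled Abca7 mice (edgeR adjusted p = 0.000762) and 0.53 ± 0.06 in control mice (4.34e-07). The ubiquitin ligase Mylip fell by 0.23 in labelled Abca7 mice (edgeR adjusted p = 0.00284), and the oxysterol hydroxylase Cyp7b1 rose by 0.20 ± 0.07 in control mice (0.0406).

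Of 11 genes that process or degrade SREBP and its partners, 1 was higher in labelled Abca7 mice (1 of 11 called, against 11.8% of all genes) and 2 were higher and 1 lower in control mice (3 of 11, against 17.3%). Erlin2, which helps degrade sterol-sensing proteins, rose by 0.18 ± 0.04 in labelled Abca7 mice (edgeR adjusted p = 0.00644) and 0.23 ± 0.04 in control mice (0.000294). In control mice the SREBP protease Mbtps1 rose by 0.12 ± 0.03 (edgeR adjusted p = 0.0174) and the ubiquitin ligase subunit Fbxw7 fell by 0.17 (0.0259). Of 28 further genes of fatty acid supply, elongation and glycerolipid assembly, 3 were higher and 1 lower in labelled Abca7 mice, and 4 were higher in control mice. At 4 of 28 in each genotype, these shares lie near the 11.8% and 17.3% of all genes. The lipogenic regulator Thrsp rose by 0.52 ± 0.10 in labelled Abca7 mice (edgeR adjusted p = 0.000401) and 0.50 ± 0.10 in control mice (0.000424), and the elongation-cycle dehydratase Hacd2 rose by 0.22 ± 0.04 in labelled Abca7 mice (0.000619) and 0.33 ± 0.04 in control mice (2.17e-06). Of 11 genes of the isoprenoid branch after farnesyl diphosphate, the lowest edgeR adjusted p was 0.270 in labelled Abca7 mice, for the methyltransferase Icmt (-0.06 ± 0.03), and 0.0571 in control mice, for Pdss1, a synthase of the coenzyme Q side chain (-0.13 ± 0.05).

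**Figure D3:**
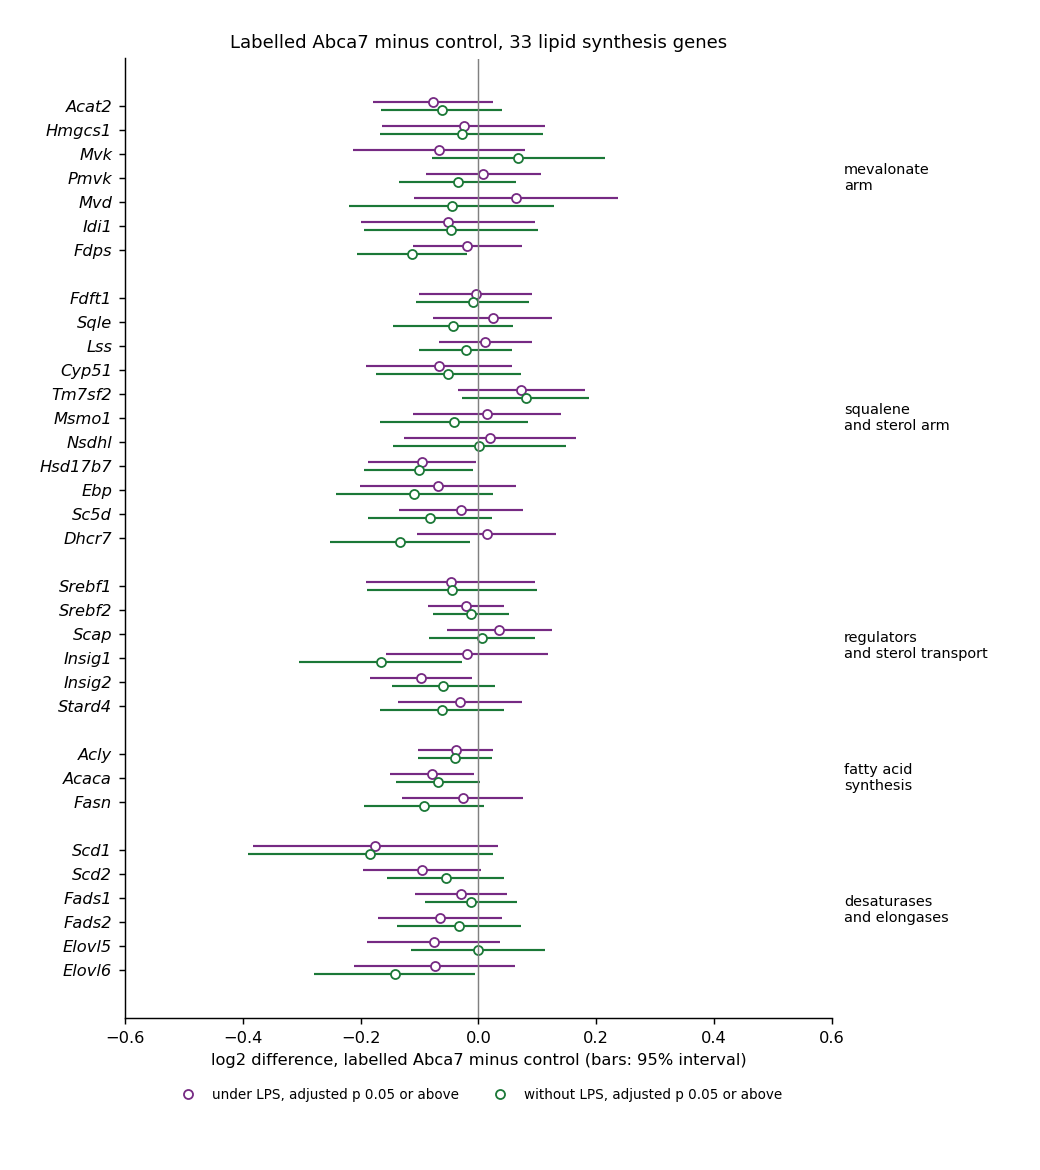
Log2 difference, labelled Abca7 minus control, for the 33 genes with 95% intervals, under LPS (purple, upper of each pair) and without LPS (green, lower). No point passed the test; 24 of 33 points under LPS and 29 of 33 without LPS lie below 0.

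The second question is whether the genotype label altered these genes. No gene of the 33 passed the edgeR test, either under LPS (lowest adjusted p = 0.57) or without LPS (lowest adjusted p = 0.653), nor by DESeq2. At an unadjusted p below 0.05 there were 3 of 33 under LPS (9.09%, against 7.99% of all genes) and 5 of 33 without LPS (15.2%, against 6.51%). The background was as low: 0% of all genes were called under LPS and 0.032% without LPS, 7 genes. The intervals reached from -23.3% to 17.8% under LPS and from -23.8% to 16.1% without LPS, again within 50% for all 33 genes.

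The estimates nonetheless leaned to one side. Under LPS 24 of 33 genes had an estimate below 0 (median -0.03, against -0.0027 over all genes, of which 51.1% were below 0), and without LPS 29 of 33 did (median -0.05, against -0.0007 and 50.4%). The 2 comparisons use different libraries, but the genes are measured in the same libraries and move together, so these counts carry no test. Scd1 had the lowest estimate of the 33 in both: 142, 192 and 205 CPM in labelled Abca7 LPS mice against 168, 208 and 230 CPM in control LPS mice. It had 132, 155 and 196 CPM in labelled Abca7 mice without LPS against 167, 178 and 220 CPM in control mice without LPS. The ranges overlapped and the log2 differences were -0.17 ± 0.10 under LPS (edgeR adjusted p = 0.688) and -0.18 ± 0.10 without LPS (edgeR adjusted p = 0.824). Insig1 differed by -0.02 ± 0.07 under LPS and -0.17 ± 0.07 without LPS (edgeR adjusted p = 0.657), and Fasn by -0.03 ± 0.05 and -0.09 ± 0.05 in the same order. Of the others with set roles, Acaca differed by -0.08 ± 0.03 under LPS and -0.07 ± 0.03 without, and Scd2 by -0.10 ± 0.05 and -0.06 ± 0.05. Insig2 differed by -0.10 ± 0.04 and -0.06 ± 0.04, and Srebf1 by -0.05 ± 0.07 in both. In the same order, Srebf2 differed by -0.02 ± 0.03 and -0.01 ± 0.03, Sqle by 0.02 ± 0.05 and -0.04 ± 0.05, and Scap by 0.04 ± 0.04 and 0.0063 ± 0.04. Mean neuron and oligodendrocyte marker levels also lay lower in the mice labelled Abca7, under LPS and without. So did those of oligodendrocyte precursors, endothelium, and neutrophils and monocytes. Microglia lay higher in both comparisons, with 4.03 ± 0.14 log2 CPM in labelled Abca7 LPS mice against 3.90 ± 0.09 in control LPS mice. Astrocyte, choroid plexus and meningeal fibroblast levels differed in direction between the comparisons. Choroid plexus averaged 3.02 ± 0.82 in labelled Abca7 LPS mice against 3.46 ± 0.46 in control LPS mice. Without LPS it averaged 3.26 ± 0.86 in labelled Abca7 mice against 1.55 ± 0.99 in control mice. The 9 neuron markers averaged 9.08 ± 0.02 log2 CPM (SD, n = 6) in labelled Abca7 LPS mice against 9.12 ± 0.02 in control LPS mice (exact permutation p = 0.0108, adjusted over 24 such tests 0.078), and 9.09 ± 0.04 in labelled Abca7 mice without LPS against 9.13 ± 0.02 in control mice without LPS (exact permutation p = 0.0476, adjusted 0.228). The 10 oligodendrocyte markers averaged 7.21 ± 0.11 log2 CPM in labelled Abca7 LPS mice against 7.28 ± 0.16 in control LPS mice, and 7.13 ± 0.23 in labelled Abca7 mice without LPS against 7.20 ± 0.15 in control mice without LPS. The alternative fits included the oligodendrocyte marker level as a covariate. Over all of them, 21 to 27 genes lay below 0 under LPS and 23 to 30 without LPS. The part of these cell types in the genotype estimates was not otherwise tested.

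The third question is whether the LPS effect depended on the genotype label. The interaction gave 0 calls among the 33 genes and 0% of all genes by edgeR, with every member at an adjusted p of 0.999953, and 0 of 33 at an unadjusted p below 0.05 (745 of all genes). For Insig1 and Dhcr7, called in labelled Abca7 mice and not in control mice, the difference between the LPS effects was 0.15 log2 units each and was not called. The intervals of the 33 interactions reached from -21.1% to 27.8%.

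**Figure D4:**
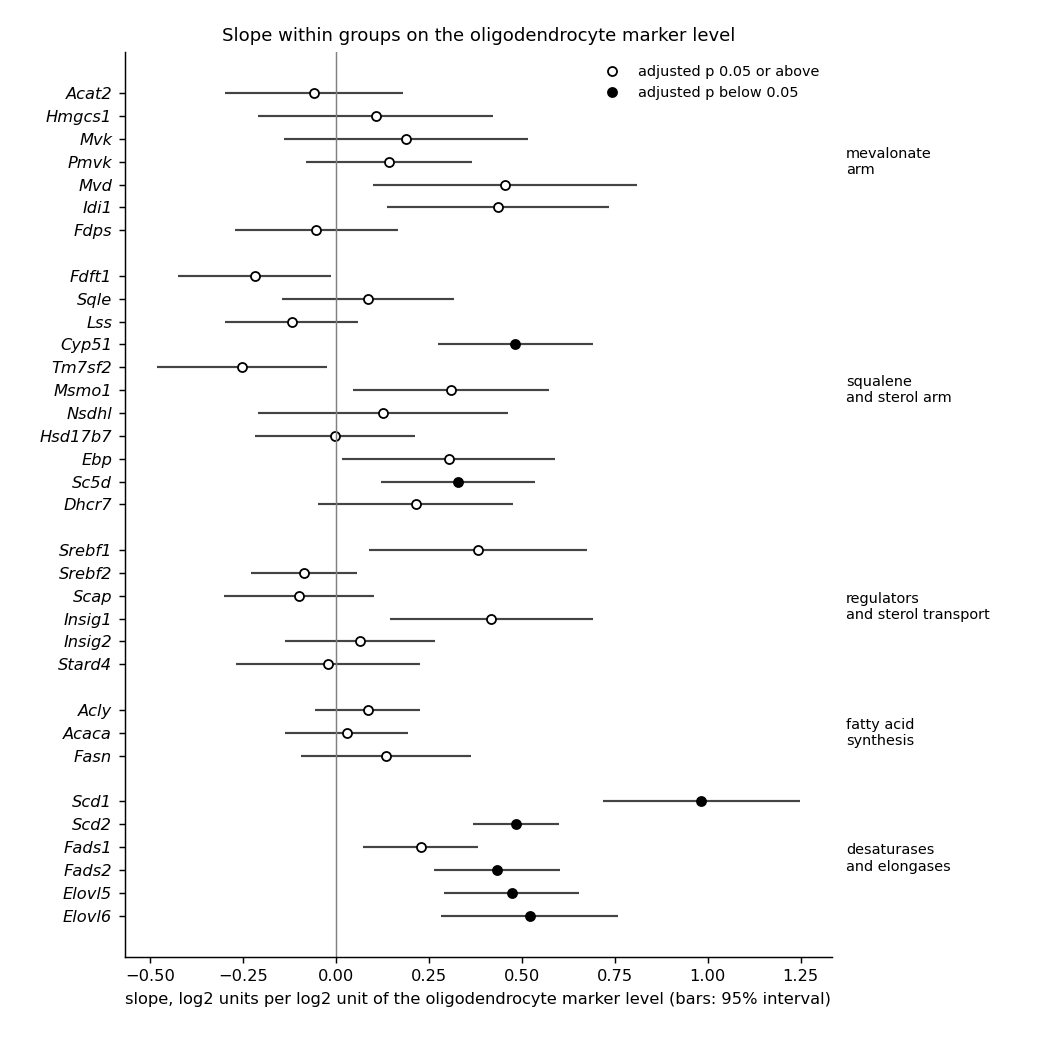
Slope of each of the 33 genes, within groups, on the mean log2 CPM of 10 oligodendrocyte markers over 24 libraries, with 95% intervals; filled points passed an adjusted p of 0.05. The 7 filled points run from 0.33 (Sc5d) to 0.98 (Scd1), and 5 of the 6 desaturases and elongases are among them.

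Within groups, 5 of the 6 fatty acid desaturases and elongases followed the oligodendrocyte marker level, and 2 of them, Scd1 and Scd2, also did with age as a factor in the fit. That level, the mean log2 CPM of 10 myelin and oligodendrocyte genes, ran from 6.92 to 7.47 over the 24 libraries with no difference between groups past the test (exact permutation p between 0.398 and 0.5, n = 6 each). A term for it was added to the fit beside the groups, a step chosen after seeing the data. Of the 33 genes 7 (21.2%) had a positive slope past the threshold, against 4.74% of all genes, and 0 a negative one by edgeR (Tm7sf2 and Fdft1, at an adjusted p of 0.186 and 0.205, were the lowest), against 3.44%; the median slope was 0.14, against -0.0038 over all genes. Library composition is shared by all genes of a library, so the members are not independent of one another here.

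The stearoyl-CoA desaturases, which make the monounsaturated fatty acids that are abundant in myelin, had the lowest adjusted p-values of the 33. Scd1 changed by 0.98 ± 0.13 log2 units per log2 unit of marker level (edgeR adjusted p = 2.04e-05) and Scd2 by 0.48 ± 0.06 (6.62e-06). The elongases Elovl6 and Elovl5 had slopes of 0.52 ± 0.12 (edgeR adjusted p = 0.00472) and 0.47 ± 0.09 (0.001), and the polyunsaturated fatty acid desaturase Fads2 0.43 ± 0.08 (0.00119). Fads1, its neighbour in the pathway, had 0.23 ± 0.08 and missed the threshold (edgeR adjusted p = 0.0597). Of the sterol arm, Cyp51, the lanosterol demethylase, passed with 0.48 ± 0.10 (edgeR adjusted p = 0.00313), as did Sc5d, a desaturase of the sterol ring, with 0.33 ± 0.10 (0.0411). The Sc5d call ended without any 1 of 12 libraries, namely Abca7_LPS replicates 3 and 6, control_LPS replicates 1, 3, 4 and 5, Abca7_none replicates 3 and 5, and control_none replicates 1, 3, 4 and 6 (edgeR adjusted p between 0.05005 and 0.131). None of the 7 mevalonate enzymes, 6 regulators or 3 genes of fatty acid synthesis passed; Fasn had 0.13 ± 0.11, Acaca 0.03 ± 0.08 and Sqle 0.09 ± 0.11.

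**Figure D5:**
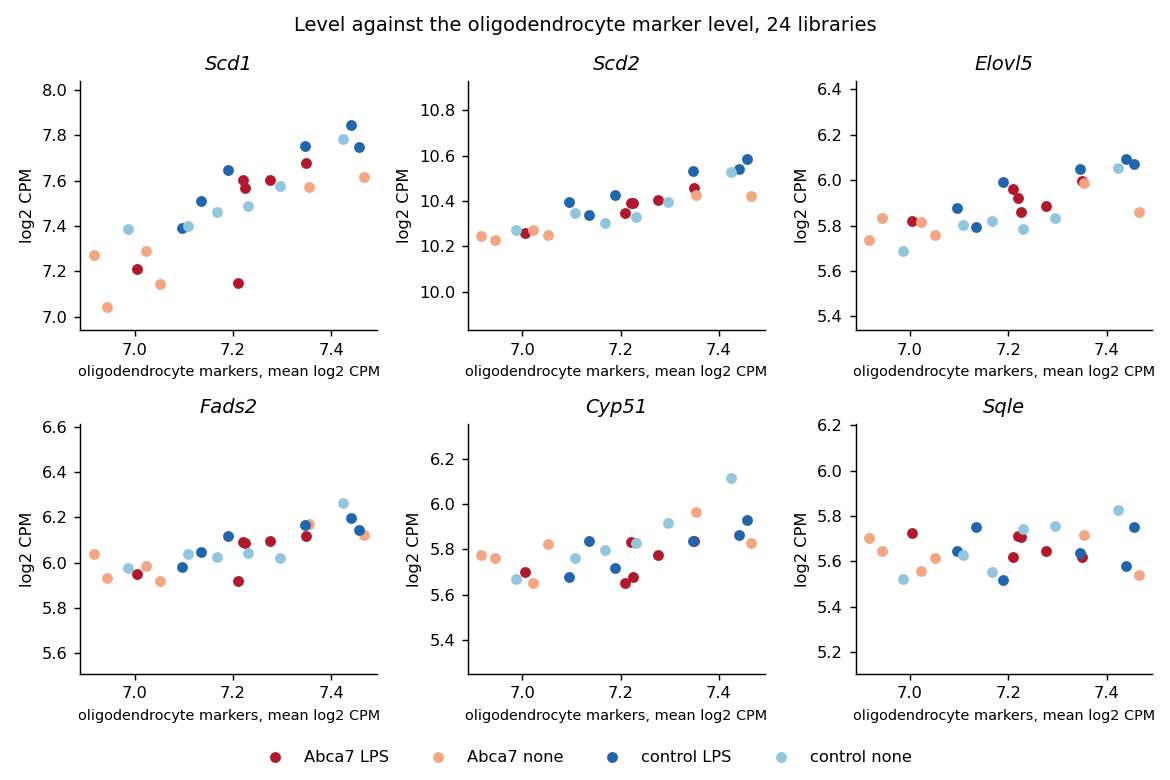
Log2 CPM of 6 genes in each of the 24 libraries against the oligodendrocyte marker level (mean log2 CPM of 10 markers), coloured by group; each panel spans the same height in log2 units. Scd1, with a slope of 0.98, climbs most steeply, Scd2, Elovl5, Fads2 and Cyp51 climb with slopes between 0.43 and 0.48, and Sqle, with 0.09, does not show a called slope.

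Ages were not the same in all libraries. With age as a factor 2 of these 7 slopes passed, Scd1 at 0.72 (edgeR adjusted p = 0.0247) and Scd2 at 0.41 (0.0103), while positive calls over all genes numbered 164 instead of 1038. The other 5 stayed positive and did not pass (edgeR adjusted p between 0.266 and 0.618), with Elovl5 at 0.37, Fads2 at 0.28, Cyp51 at 0.27, Elovl6 at 0.23 and Sc5d at 0.22. On the neuron marker level all 6 desaturases and elongases had slopes of the opposite sign: Scd1 had -4.47 ± 1.13 (edgeR adjusted p = 0.0212), Elovl6 -3.01 ± 0.75 (0.0188) and Scd2 -2.04 ± 0.55 (0.0308), 3 of 33 negative calls against 2.66% of all genes. Fdft1 was the only positive call, 1 of 33 against 2.15%, with 2.34 ± 0.49 (edgeR adjusted p = 0.0085). The marker levels come from the same libraries and are not independent of one another. Abca7_none replicate 4 had both the highest oligodendrocyte level (7.47 log2 CPM) and the lowest neuron level (9.03). The opposite signs are therefore not a result separate from the oligodendrocyte slopes. The neuron level spans little, 9.03 to 9.16 log2 CPM, and the neuron calls rest on few libraries: without control_none replicate 1 none of the 3 negative slopes passed, and without control_LPS replicate 1, control_LPS replicate 2 or Abca7_none replicate 4 only that of Elovl6 did. The Scd2 call was also lost without any 1 of Abca7_LPS replicates 4 and 6, control_LPS replicate 6, Abca7_none replicates 2 and 6, and control_none replicates 3 and 5 (edgeR adjusted p over these 11 libraries between 0.0519 and 0.136). With age as a factor none of the 4 neuron slopes passed by edgeR: Fdft1 had 2.10 (adjusted p = 0.119), Scd1 -3.64 (0.0508), Scd2 -1.80 (0.0867) and Elovl6 -1.78 (0.234). On the astrocyte marker level no gene of the 33, and 0% of all genes, had a called slope by edgeR, with 5 of 33 (and 1925 of all genes) at an unadjusted p below 0.05. Scd2, Fads1 and Elovl5 were among these 5. All 6 desaturases and elongases had positive astrocyte slopes, from 0.25 to 1.43, the same sign as on the oligodendrocyte level. The astrocyte level varied less within groups, with an SD of 0.05 log2 CPM against 0.17 for oligodendrocytes.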

How the data were processed

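Per the labels' protocols, RNA of mouse cortex was extracted with TRIzol and an RNeasy kit with DNase. The series design text names a HiSeq 4000 for sequencing and MAP-RSeq 2.1.1 for counting. Reads were aligned to mm10 with STAR 2.5.2b, per the submitters' processing notes. The authors deposited raw read counts per gene, with no normalization. Strand setting, annotation release and treatment of reads with several matches: not given in the sources used here.

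Libraries were grouped by the genotype and stimulus labels. Genes were kept with filterByExpr, scaled with TMM, and fitted over all 24 libraries in edgeR 4.0.16 (R 4.3.3) with 1 coefficient per group. The quasi-likelihood F test was two-sided, adjusted by Benjamini-Hochberg over all 21891 genes, with a threshold of 0.05; a standard error is the log2 difference divided by the square root of F. CPM values use TMM-scaled totals; log2 CPM adds a prior count of 2. Slopes add 1 marker level to the fit, leave out the markers themselves, and were added after seeing the data. Single values were compared with exact permutation tests. The fits were tested on simulated counts. The lowest chi-square per gene over 276 pairs of libraries was 7.80, so no library was taken as a duplicate. Loci of ribosomal RNA held 5.88% to 18.7% of counts.

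The genes and the lists of related genes and markers were chosen with earlier results of these data known. Genes past the threshold in any of the 5 comparisons are named with their values, and of the others those that set rates or regulate the pathway (Sqle, Srebf1, Srebf2, Scap, Insig1, Insig2, Acaca, Fasn, Scd1 and Scd2). From related lists at most 5 genes past the threshold per comparison are named. Alternatives were DESeq2 1.42.0 and its size factors, no filter, a mean CPM of at least 1, leaving out the ribosomal RNA loci, age as a factor, Ttr or the oligodendrocyte marker level as a covariate, only the groups compared, and leaving out each library. Overlaps and shared 50-base sequences come from GENCODE M21 on the same build: 17 of the 33 genes overlap another gene, and 8 share over 5% of their sequence with one. Gene coordinates follow the deposited table (mm10), and promoters those of RefSeq on GRCm38.p6. Figures were drawn with matplotlib 3.10.9.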

Additional observations from a re-analysis of the deposited data

Results flagged for a closer look

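In 5 of the 132 combinations of a gene and a group, 1 library stood far from the other 5 (a gap over 0.625 of the range, Dixon's limit for 6 values). Chance flags about 1 in 20 such groups. Control_none replicate 1 had 76.73 CPM of Fads2, against 62.9 to 65.8 CPM in the other libraries of its group, and 194.5 CPM of Fads1, against 172 to 179 CPM. Abca7_none replicate 3 had 50.77 CPM of Insig1, against 43.2 to 45.8 CPM, and 18.45 CPM of Nsdhl, against 15.6 to 16.5 CPM. Control_LPS replicate 3 had 46.2 CPM of Idi1, against 35.6 to 38.1 CPM. All 5 were the highest of their group.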

How the results depend on the processing

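Among the 33 genes, the 8 LPS differences and 11 slopes past the threshold kept their sign under every alternative run for them. They were picked as past the threshold in these same libraries, so the kept signs are a description and no support. The differences that did not pass, and the genes of related lists, were not followed one by one. In control mice 3 genes passed for LPS; 1 passed with no count filter, 0 with Ttr as a covariate and 6 with the oligodendrocyte marker level as a covariate, and 1 to 5 with each library left out. In labelled Abca7 mice 5 passed; 2 did with age as a factor and 3 to 5 with each library left out. Genes with an LPS estimate above 0 numbered 13 instead of 22 in control mice with Ttr as a covariate, and 12 instead of 24 in labelled Abca7 mice with age as a factor; over the libraries left out they ranged from 19 to 26 and from 22 to 26. No gene of the 33 passed for genotype or interaction under any alternative. With age as a factor, positive oligodendrocyte slopes numbered 2 instead of 7, positive neuron slopes 0 instead of 1 and negative neuron slopes 0 instead of 3; with each library left out these were 6 to 10, 1 to 1 and 0 to 4. The cause of these shifts was not tested. Ttr itself differed between the control groups, so fits with it cannot tell Ttr and LPS well apart there. Over all genes, the 3790 calls for LPS in control mice became 1626 with Ttr. The 0 for genotype under LPS became 37 by DESeq2 and 2 with age. The 7 without LPS became 31 by DESeq2, 49 with age, 13 with the oligodendrocyte level, 3 with Ttr, 3 with only the groups compared, and 2 to 38 with each library left out (38 without control_none replicate 1, where the interaction had 7). With age, positive and negative slopes numbered 164 and 22 instead of 1038 and 753 for oligodendrocytes, and 50 and 85 instead of 471 and 583 for neurons. The single library of 58 days is fitted exactly by the age factor. No paired analysis was possible because the labels carry no replicate numbers.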
